A study of Homo sapiens with 9 samples.

Results

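The genes described here are 8 genes of cholesterol synthesis, HMGCS1, SQLE, IDI1, INSIG1, FDFT1, LSS, DHCR7 and ACAT2, measured in HSF-6, a line of human embryonic stem cells. They were taken by name, and every probe set that the array annotation assigns to a member was used. 7 of the 8 genes had such probe sets, 19 in all, among 19775 genes with a probe set of their own. FDFT1, squalene synthase, was not among the annotated probe sets and was not analysed here. 18 of the 19 probe sets, covering the same 7 genes, passed the filter on low values, in which at least 3 of the 9 arrays had to lie above their own median signal; 29328 probe sets of all kinds and 13519 genes passed it. The member left out was 1 dim LSS probe set. The genes act in synthesis or its control, and none of them is a receptor that takes up cholesterol.

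The 9 RNA samples formed 3 groups of 3 arrays: HSF-6(S9) cells with butyrate and DZNep, HSF-6(8) cells with butyrate and DZNep, and HSF-6(8) cells without the compounds, called control in the labels. Both are sublines of HSF-6, an established line from a human embryo, collected after 11 passages with or without the compounds and grown for 6 days; the labels do not explain the names 8 and S9. Butyrate inhibits histone deacetylases, and DZNep (3-deazaneplanocin A) inhibits S-adenosylhomocysteine hydrolase and thereby reduces histone methylation by EZH2. HSF-6(S9) cells without the compounds were not among the samples, so that subline and compounds cannot be told apart where treated HSF-6(S9) is set against untreated HSF-6(8). Nothing in the labels ties the arrays of a group to separate cultures, so p-values measure only how these samples vary, and that variation may be technical.

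Animal cells make cholesterol from acetyl-CoA by way of mevalonate, isoprenoid units, squalene and lanosterol. When the membrane of the endoplasmic reticulum is poor in sterol, SREBP factors move to the Golgi apparatus, are cut there and switch on most genes of the pathway. When it is rich in sterol, INSIG proteins hold the SREBP factors and their escort SCAP back. Messenger RNAs of the pathway therefore often move together in cultured cells, and they follow the sterol supply of the medium.

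In no comparison did a member pass the test. The comparison within HSF-6(8) (treated against untreated cells), that of the S9 subline against subline 8 with both treated, and that of treated HSF-6(S9) against untreated HSF-6(8) each gave 0 of 18 member probe sets at an adjusted p under 0.05 (limma, Benjamini-Hochberg over 29328 probe sets). Also 0 of 18 had an unadjusted p under 0.05 in each of them. Over all probe sets the same rule called 0.3% between treated and untreated HSF-6(8) cells (80 higher, 8 lower), 0% between the treated sublines and 0.389% between treated HSF-6(S9) and untreated HSF-6(8) cells (92 higher, 22 lower). The 0 calls between the treated sublines stood beside 712 probe sets, or 2.43%, with an unadjusted p under 0.05. With the array number as a block, 148, 0 and 234 of all probe sets were called in the same order, and again 0 of 18 members. With shares this small, a count of 0 among 18 lies at the background and is no statement about these genes in particular.

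The intervals say more than the calls. On the log2(signal + 16) scale, which understates the changes of dim probe sets, the 95% interval of the probe set with the highest mean lay inside a 2-fold change in either direction for 7 of 7 genes in all 3 comparisons. Over all 18 member probe sets this held for 15 between treated and untreated HSF-6(8), 13 between the treated sublines and 16 between treated HSF-6(S9) and untreated HSF-6(8). With the array number as a block it held for 18, 17 and 18, and the share over all kept probe sets was not computed for that fit. Without the block, among all kept probe sets it held for 65.7%, 69.1% and 61.1% in the same order of comparisons. Those include many dimmer probe sets, so the counts are not read as a trait of the sterol genes. Changes smaller than 2-fold were not shown to be absent. In simulated independent arrays of the comparison within HSF-6(8), with the spread of these data, 15.1% of 2-fold and 66.8% of 4-fold changes were recovered. The changed probe sets were drawn at random from all kept ones, so these are not rates for the members. The median SD within groups was 0.33 over all kept probe sets and 0.23 over the 7 genes.

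Promoter letters of the members are shown because SREBP factors act through a short sterol box, often beside boxes for NF-Y (CCAAT) and Sp1 (GGGCGG). RefSeq promoter windows of GRCh38.p14, from 250 bases before to 50 bases after a gene's start, were matched for 5 of the 8 members, HMGCS1, IDI1, INSIG1, LSS and DHCR7, in 9 windows. The 8-letter sterol box CACNCCAC, searched on both strands, lay in 2 of the 9 windows, in IDI1 and INSIG1, and in 5.87% of 35116 promoter windows of the table. Both windows are printed 5′ to 3′ on the strand of the gene, with the box in capitals; it is read on the opposite strand in both. The IDI1 window is chr10:1048837-1049136 (minus strand) and the INSIG1 window is chr7:155297628-155297927 (plus strand).
IDI1: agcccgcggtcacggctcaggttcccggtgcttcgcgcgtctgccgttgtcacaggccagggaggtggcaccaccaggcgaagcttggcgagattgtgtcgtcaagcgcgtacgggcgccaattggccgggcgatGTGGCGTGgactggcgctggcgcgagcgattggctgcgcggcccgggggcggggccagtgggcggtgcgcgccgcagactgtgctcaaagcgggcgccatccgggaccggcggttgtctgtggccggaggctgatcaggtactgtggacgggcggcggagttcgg
INSIG1: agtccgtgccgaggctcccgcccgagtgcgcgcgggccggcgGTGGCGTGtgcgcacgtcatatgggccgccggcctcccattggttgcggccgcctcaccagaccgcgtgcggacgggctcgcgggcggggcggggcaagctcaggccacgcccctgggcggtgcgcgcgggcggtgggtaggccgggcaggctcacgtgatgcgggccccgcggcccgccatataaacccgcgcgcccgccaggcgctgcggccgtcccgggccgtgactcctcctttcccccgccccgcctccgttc
Counted from the gene's start as 0, the box began at -115 in IDI1 and at -208 in INSIG1. The longer string TCACNCCAC, which contains the shorter one, lay in 0 of the 9 windows and in 1.13% of all. CCAAT lay in 6 windows of 5 genes (34.6% of all windows), and in the IDI1 window shown it matched on both strands at overlapping letters. GGGCGG lay in 8 windows of 5 genes (45% of all). A match describes letters only, and the lack of one says only that they are not in this window.

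HMGCS1, the cytosolic HMG-CoA synthase, joins acetoacetyl-CoA and acetyl-CoA on the way to mevalonate. Its brighter probe set (221750_at) read 2144, 1202 and 3135 signal units in treated HSF-6(S9) cells. It read 1721, 1854 and 1907 in treated HSF-6(8) cells and 1929, 1666 and 1948 in untreated HSF-6(8) cells. Both the lowest and the highest of the 9 arrays were treated HSF-6(S9) arrays, and the 3 groups overlapped. The mean was 2160 ± 967 in treated HSF-6(S9), 1827 ± 95.9 in treated HSF-6(8) and 1848 ± 158 in untreated HSF-6(8) cells (SD, n = 3 each). Within HSF-6(8) the log2 fold change was -0.01 ± 0.31 (SE), with a 95% interval from -0.70 to 0.68. It was 0.14 between the treated sublines and 0.12 between treated HSF-6(S9) and untreated HSF-6(8). The dimmer probe set of HMGCS1 (205822_s_at), at 211 to 400 units, gave log2 fold changes of 0.19, -0.29 and -0.11 in those 3 comparisons, so the signs of the 2 probe sets differed in each.

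ACAT2, the cytosolic acetyl-CoA acetyltransferase that makes acetoacetyl-CoA, feeds that step. Its single probe set read 2927, 2614 and 3816 units in treated HSF-6(S9) cells. It read 2969.8, 2409.7 and 3138 units in treated HSF-6(8) cells, against 3458, 3243 and 4297 units in untreated HSF-6(8) cells. All 3 treated HSF-6(8) arrays lay below all 3 untreated ones, and ACAT2 was the member with the smallest p in this comparison. Treated minus untreated, the log2 fold change was -0.37 ± 0.21 (SE; 95% interval -0.85 to 0.11), a ratio of 0.776, and did not pass the test (limma adjusted p = 0.843, unadjusted 0.120). The treated HSF-6(S9) arrays overlapped both other groups. Groups without overlap were no rarity: 14.9% of all kept probe sets showed it within HSF-6(8), where 1 of 18 members did.

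IDI1, isopentenyl diphosphate isomerase, interconverts the isoprenoid units from which squalene is built. Its brightest probe set (208881_x_at) read 2152, 2649 and 3432 units in treated HSF-6(S9) cells, against 2343, 2026 and 1769.7 units in treated HSF-6(8) cells. It read 2281, 2531 and 2217 units in untreated HSF-6(8) cells. The third treated HSF-6(S9) array was the highest of the 9 and the third treated HSF-6(8) array the lowest. Between the treated sublines the log2 fold change was 0.40 ± 0.21 (SE; 95% interval -0.08 to 0.88), the largest among the 18 member probe sets in that comparison, with an adjusted p of 1.00 and an unadjusted p of 0.0899 by limma. Without the third arrays it was 0.13. Its second bright probe set (204615_x_at) gave 0.22 ± 0.21 (SE) there. The dimmer IDI1 probe sets had the other sign, at -0.21 ± 0.43 (SE) for 242065_x_at and -0.02 ± 0.48 for 233014_at. The names of 208881_x_at, 204615_x_at and 242065_x_at end in _x_at, which marks probes that may bind related transcripts. Within HSF-6(8) the brightest probe set gave -0.20 ± 0.21 (SE), and between treated HSF-6(S9) and untreated HSF-6(8) cells 0.20 ± 0.21.

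SQLE, squalene epoxidase, puts oxygen on squalene and is among the rate-limiting enzymes of the pathway. Its brightest probe set (209218_at) was the steadiest bright signal of the synthesis genes beside that of LSS. It read 4411, 4914 and 4355 units in treated HSF-6(S9), 4400.2, 4183 and 3569 units in treated HSF-6(8) and 4342, 5112 and 4327 units in untreated HSF-6(8) cells. The groups overlapped, and the highest of the 9 arrays was only 1.43 times the lowest. The log2 fold change was -0.18 ± 0.17 (SE; 95% interval -0.57 to 0.20) within HSF-6(8), 0.17 between the treated sublines and -0.01 between treated HSF-6(S9) and untreated HSF-6(8). Between the treated sublines the dimmer SQLE probe sets gave -0.17 (213577_at), -0.13 (213562_s_at) and 0.06 (1557352_at), so the signs differed between probe sets. SQLE probe set 213562_s_at did not overlap between treated HSF-6(S9) and untreated HSF-6(8) cells. It read 403, 348 and 305 units in the former and 421, 461 and 404 units in the latter. Its log2 fold change was -0.28 ± 0.19 (SE), with an adjusted p of 0.641 by limma. It was the 1 of 18 members without overlap in that comparison, where 17.4% of all kept probe sets did not overlap. Between the treated sublines 0 of 18 members were free of overlap, against 6.46% of all.

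LSS, lanosterol synthase, closes oxidised squalene into the first sterol ring system. Its brightest probe set (202245_at) read 2553, 2321 and 3039.9 units in treated HSF-6(S9), 2619, 2304 and 2672 units in treated HSF-6(8) and 2328, 2377 and 2409 units in untreated HSF-6(8) cells. The untreated arrays lay close together, inside the range of the treated ones. For LSS the log2 fold change was 0.09 ± 0.17 (SE; 95% interval -0.30 to 0.48) within HSF-6(8), 0.05 between the treated sublines and 0.14 between treated HSF-6(S9) and untreated HSF-6(8). LSS was the sole gene of the 7 with a positive value within HSF-6(8). Its other kept probe set read 38.3 to 99.5 units over the 9 arrays, and the one left out read 40.4 to 78.6 units, above the array median on 2 arrays.

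DHCR7 encodes 7-dehydrocholesterol reductase, which carries out the last step to cholesterol in 1 branch of the pathway. Its brightest probe set (201791_s_at) read 1278, 1267 and 887 units in treated HSF-6(S9), 1161, 1164 and 1009 units in treated HSF-6(8) and 1695, 1277 and 937 units in untreated HSF-6(8) cells. The widest range was that of the untreated cells, which held the highest of the 9 arrays, and the third array was the lowest in each group. For DHCR7 the log2 fold change was -0.19 ± 0.25 (SE; 95% interval -0.75 to 0.37) within HSF-6(8), 0.03 between the treated sublines and -0.16 between treated HSF-6(S9) and untreated HSF-6(8). The other DHCR7 probe set gave -0.28, 0.05 and -0.23 in those comparisons, the same signs as the brightest one.

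INSIG1 is not an enzyme but the brake of the pathway, and its own gene is a target of SREBP factors. Its brightest probe set (201626_at) read 1322, 742 and 1389 units in treated HSF-6(S9), 1116, 858 and 701 units in treated HSF-6(8) and 992, 1054 and 955 units in untreated HSF-6(8) cells. The untreated arrays differed little, while both treated groups spread to either side of them. The log2 fold change was -0.19 ± 0.27 (SE; 95% interval -0.80 to 0.43) within HSF-6(8), 0.33 ± 0.27 between the treated sublines and 0.15 ± 0.27 between treated HSF-6(S9) and untreated HSF-6(8). Between the treated sublines the other INSIG1 probe sets gave 0.25 and 0.34, so all 3 were positive, with intervals that included 0. The value of the brightest one rested on single arrays: it was 0.02 without the third arrays and 0.62 without the second treated HSF-6(S9) array.

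**Figure D1:**
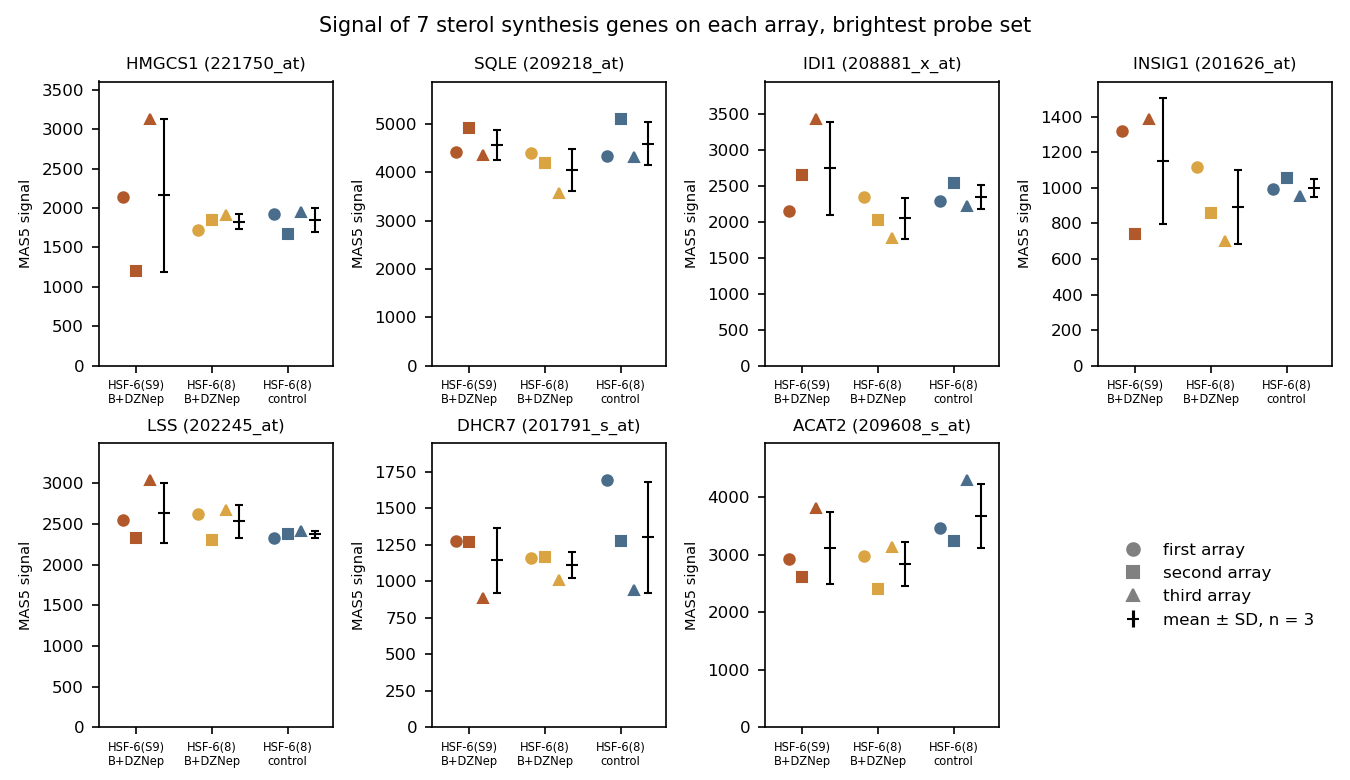
Signal of the brightest probe set of each of the 7 genes on every array, in MAS5 signal units on a linear axis, with HSF-6(S9) butyrate and DZNep, HSF-6(8) butyrate and DZNep, and HSF-6(8) control from left to right; "B+DZNep" stands for butyrate and DZNep. The groups overlap in every panel except for ACAT2, where the treated HSF-6(8) arrays (2409.7 to 3138 units) lie below the untreated ones (3243 to 4297 units).

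Over the 7 genes the direction was uneven. Within HSF-6(8), 1 gene was positive and 6 negative, with a median log2 fold change of -0.19, beside 0.02 over all kept probe sets. Between the treated sublines 7 were positive and 0 negative, with a median of 0.14, beside -0.04 over all. That median was 0.05 without the third arrays, where HMGCS1 stood at -0.15, and 0.04 when each gene was the mean of its kept probe sets. Between treated HSF-6(S9) and untreated HSF-6(8), 4 were positive and 3 negative, with a median of 0.12, beside -0.01 over all. The first 2 comparisons share the treated HSF-6(8) arrays, which stand on opposite sides of the subtraction, so their opposite signs are not separate observations. Over all 18 probe sets, 6 were positive and 12 negative within HSF-6(8), 12 and 6 between the treated sublines, and 6 and 12 between treated HSF-6(S9) and untreated HSF-6(8). In the last comparison the direction of the median depended on the arrays and probe sets used: it was -0.04 without the third arrays and -0.06 when each gene was the mean of its kept probe sets.

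**Figure D2:**
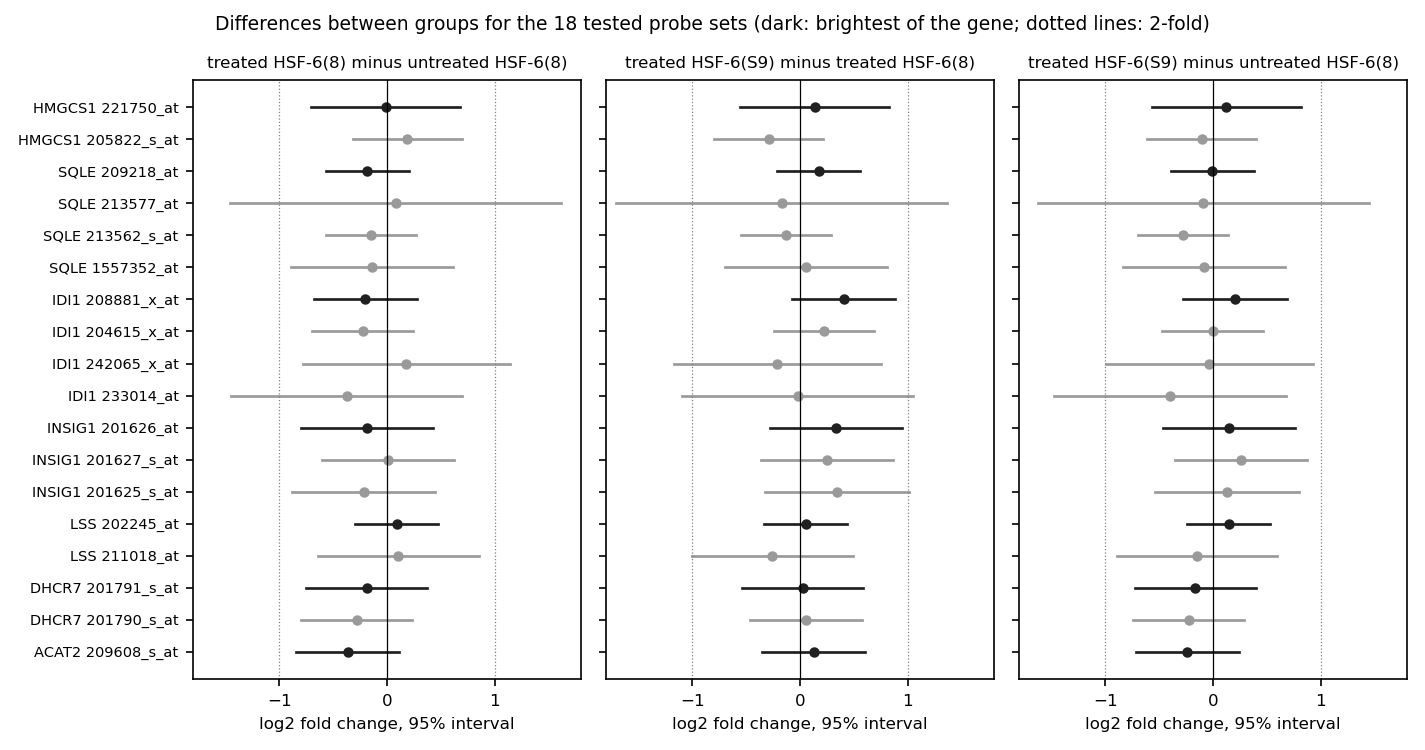
Log2 fold change of each of the 18 kept member probe sets in the 3 comparisons, as points with 95% intervals from limma; the x axis is the log2 fold change of log2(signal + 16) values. All intervals include 0, and those of the brightest probe sets stay inside a 2-fold change in either direction.

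The spread between arrays of a group differed between genes. The pooled SD within groups, on the log2 scale, was 0.41 for HMGCS1, 0.35 for INSIG1 and 0.31 for DHCR7. It was 0.23 for IDI1 and ACAT2 and 0.13 for SQLE and LSS. The median of the 7 genes was 0.23, beside 0.33 over all kept probe sets, which include many dimmer ones. Relative to its own mean over the 9 arrays, HMGCS1 stood at 0.73, IDI1 at 0.55, INSIG1 at 0.48 and LSS at 0.28 on the third treated HSF-6(S9) array, their highest values. On the second treated HSF-6(S9) array HMGCS1 stood at -0.65 and INSIG1 at -0.41, while IDI1 stood at 0.18. On the second treated HSF-6(8) array 0 of the 7 genes lay above their own mean. On the third treated HSF-6(S9) array HMGCS1, IDI1 and INSIG1 thus stood farther from their means than the widest difference between group means of the 7 genes, which was 0.40.

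**Figure D3:**
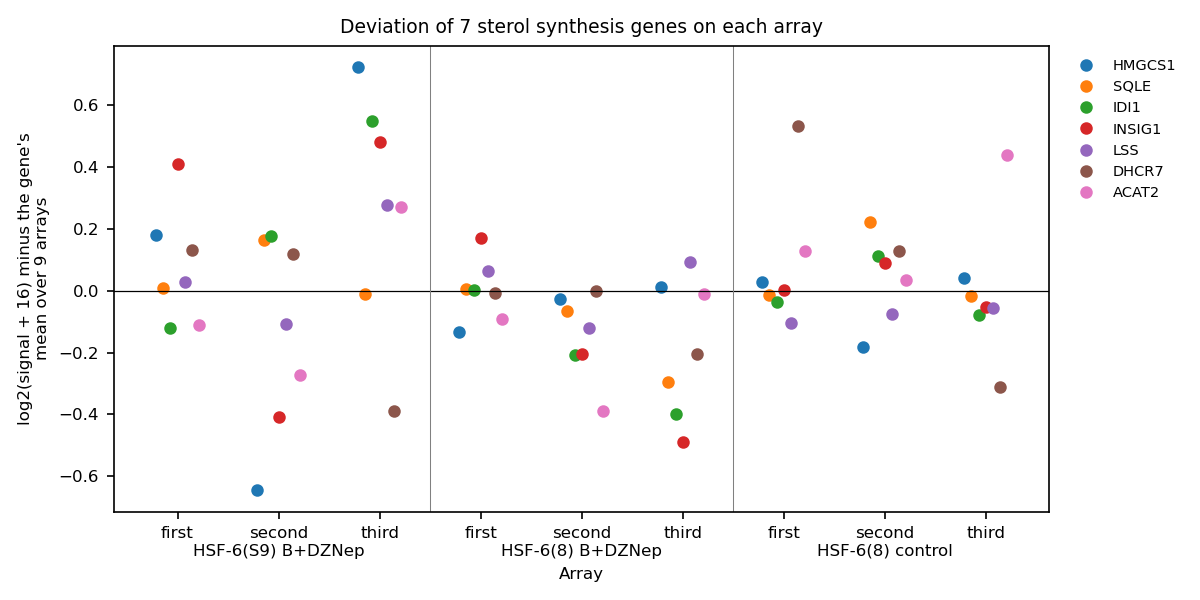
Deviation of the 7 genes on each of the 9 arrays, as log2(signal + 16) minus the gene's mean over the arrays, with treated HSF-6(S9), treated HSF-6(8) and untreated HSF-6(8) from left to right and 1 point for each gene. HMGCS1 spans from -0.65 to 0.73 within treated HSF-6(S9), while SQLE and LSS stay closer to 0.

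The third arrays stood apart for some probe sets, most strongly for some dim ones, in all 3 groups alike. SQLE probe set 213577_at read 1349.9 units on the third array of treated HSF-6(S9), 1446 on that of treated HSF-6(8) and 1646 on that of untreated HSF-6(8). On the other 6 arrays it read 371 to 593 units. The third array was therefore 3.21, 2.91 and 3.91 times the mean of the other 2 in those groups, while the brightest SQLE probe set had the lowest value of each group there. IDI1 probe set 233014_at behaved alike, with 157, 161 and 233 units on the third arrays of those groups, and 56.4 to 85.3 units on the others. The third array was the highest in all 3 groups for 6 of 18 members (16.4% of all kept probe sets) and the lowest in all 3 for 2 of 18 (13.8%). These included the brightest probe sets of HMGCS1, LSS and ACAT2, highest there, and those of SQLE and DHCR7, lowest there. The 3′ probe set of the 18S ribosomal RNA control read 1517, 850.2 and 963.5 units on the third arrays of those groups, against 385.5 to 541.5 on the others. With the array number as a block, the SE of 213577_at was 0.21, against 0.68 without it, and its 95% intervals then lay inside a 2-fold change in each comparison, as did those of 233014_at. For 233014_at between treated HSF-6(S9) and untreated HSF-6(8) the blocked value was -0.40 ± 0.17 (SE; 95% interval -0.79 to -0.01), with no call after adjustment. The labels do not say how the third arrays differ; with the third arrays as a block, or without them, 0 of 18 members were called in each comparison.

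The other genes of the pathway gave no calls either. Of 60 genes on 5 lists, 46 had a kept probe set, and 0 of the 46 passed the test in any comparison. Unadjusted p-values under 0.05 came from 3 of them within HSF-6(8), 0 between the treated sublines and 5 between treated HSF-6(S9) and untreated HSF-6(8), against 7.52%, 2.43% and 11.3% of all kept probe sets. The groups did not overlap for 7 higher and 3 lower genes in the first of these comparisons (21.7% of the 46), 2 and 1 in the second (6.52%), and 6 and 5 in the third (23.9%). Over all kept probe sets these shares were 14.9%, 6.46% and 17.4%. The median log2 fold change within HSF-6(8) was -0.02 for 13 further synthesis genes, -0.02 for 8 genes of sterol sensing and SREBP processing, 0.03 for 10 of uptake and trafficking, -0.02 for 11 fatty acid targets of SREBP and -0.09 for 4 ketone body enzymes and acetyltransferases, beside 0.02 over all kept probe sets. Between the treated sublines the medians of these lists were 0.05, 0.16, 0.01, 0.12 and -0.06, beside -0.04 over all. Between treated HSF-6(S9) and untreated HSF-6(8) they were 0.05, 0.28, 0.05, 0.15 and -0.08, beside -0.01 over all. The list of sterol sensing and SREBP processing had 7 of 8 genes positive in each of the last 2 comparisons, which share the treated HSF-6(S9) arrays, and 3 of 8 within HSF-6(8).

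SREBF1, which encodes the SREBP factor best known for fatty acid synthesis genes, had the smallest p on these lists. It read 432.6, 647.1 and 453.8 units in treated HSF-6(S9) cells and 399.5, 490.3 and 535.4 units in treated HSF-6(8) cells, against 267.5, 278.3 and 269.3 units in untreated HSF-6(8) cells. Both treated groups lay above the untreated one without overlap. The log2 fold change was 0.76 ± 0.20 (SE) within HSF-6(8) and 0.85 ± 0.20 between treated HSF-6(S9) and untreated HSF-6(8), and neither passed the test (limma adjusted p = 0.265 and 0.146). MBTPS2, a protease that releases SREBP factors in the Golgi apparatus, lay lower without overlap in both treated groups, at -0.36 in each comparison with untreated cells, and did not pass either. SCAP and INSIG2 had log2 values of 0.30 and 0.31 between the treated sublines.

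SOAT1 encodes the enzyme that esterifies cholesterol for storage. It read 368, 240.0 and 673.4 units in treated HSF-6(S9) cells and 350.5, 347.4 and 431.2 units in treated HSF-6(8) cells, against 129.9, 193.5 and 235.3 units in untreated HSF-6(8) cells. The treated groups lay above the untreated one without overlap. For SOAT1 the log2 fold change was 0.98 ± 0.35 (SE) within HSF-6(8) and 1.05 ± 0.35 between treated HSF-6(S9) and untreated HSF-6(8), with limma adjusted p of 0.474 and 0.290. LIPA, the lysosomal acid lipase that frees cholesterol from taken-up esters, gave 0.69 and 0.73 (limma adjusted p = 0.584 and 0.362), also without overlap. NPC2 and ABCA1, which carry cholesterol out of lysosomes and out of cells, stood at 0.50 and -0.40 between the treated sublines. NPC2 read 21240 units on the second treated HSF-6(S9) array, against 9826 and 9340 on the other 2, and without that array NPC2 stood at 0.12 and ABCA1 at -0.14. VLDLR, a lipoprotein receptor of the same list named here after its values were seen, stood at -0.68 ± 0.22 (SE; limma adjusted p = 0.263) between treated HSF-6(S9) and untreated HSF-6(8) and at -0.42 ± 0.22 within HSF-6(8), lower without overlap in both and not past the test.

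Of the further synthesis genes, LBR, a sterol reductase of the nuclear envelope, gave 0.48 ± 0.25 (SE) within HSF-6(8), with 5014, 4292 and 7107 units in treated cells against 3572, 3765 and 4134 units in untreated cells. MVD, mevalonate diphosphate decarboxylase, gave -0.32 ± 0.27. Between treated HSF-6(S9) and untreated HSF-6(8) they stood at 0.29 and -0.26. GGPS1 and ERG28 stood at -0.34 and 0.30 between the treated sublines. None of these values passed the test.

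On the fatty acid list, FABP5, a fatty acid binding protein, read 9579, 7834 and 10200 units in treated HSF-6(S9) cells, against 14150, 15870 and 18600 units in untreated HSF-6(8) cells. The groups did not overlap, at a log2 fold change of -0.81 ± 0.30 (SE; limma adjusted p = 0.333). Within HSF-6(8) FABP5 stood at -0.48 ± 0.30, and the third treated array, at 18860 units, was above all untreated ones. PNPLA3, a lipase of fat droplets, stood at 0.58 within HSF-6(8). ME1, malic enzyme, stood at -0.49 between the treated sublines and -0.54 between treated HSF-6(S9) and untreated HSF-6(8), and the desaturase FADS2 stood at 0.47 between the treated sublines. ME1 stood at -0.04 there without the third treated HSF-6(8) array (1042 units), and FADS2 at 0.13 without the second treated HSF-6(S9) array (3621 units). Of the ketone body genes, BDH1 stood at -0.31 and the mitochondrial thiolase ACAT1 at -0.27 within HSF-6(8), and at -0.11 and 0.10 between the treated sublines. Between treated HSF-6(S9) and untreated HSF-6(8), BDH1 stood at -0.42 and the acetoacetyl-CoA synthetase AACS at 0.23.

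**Figure D4:**
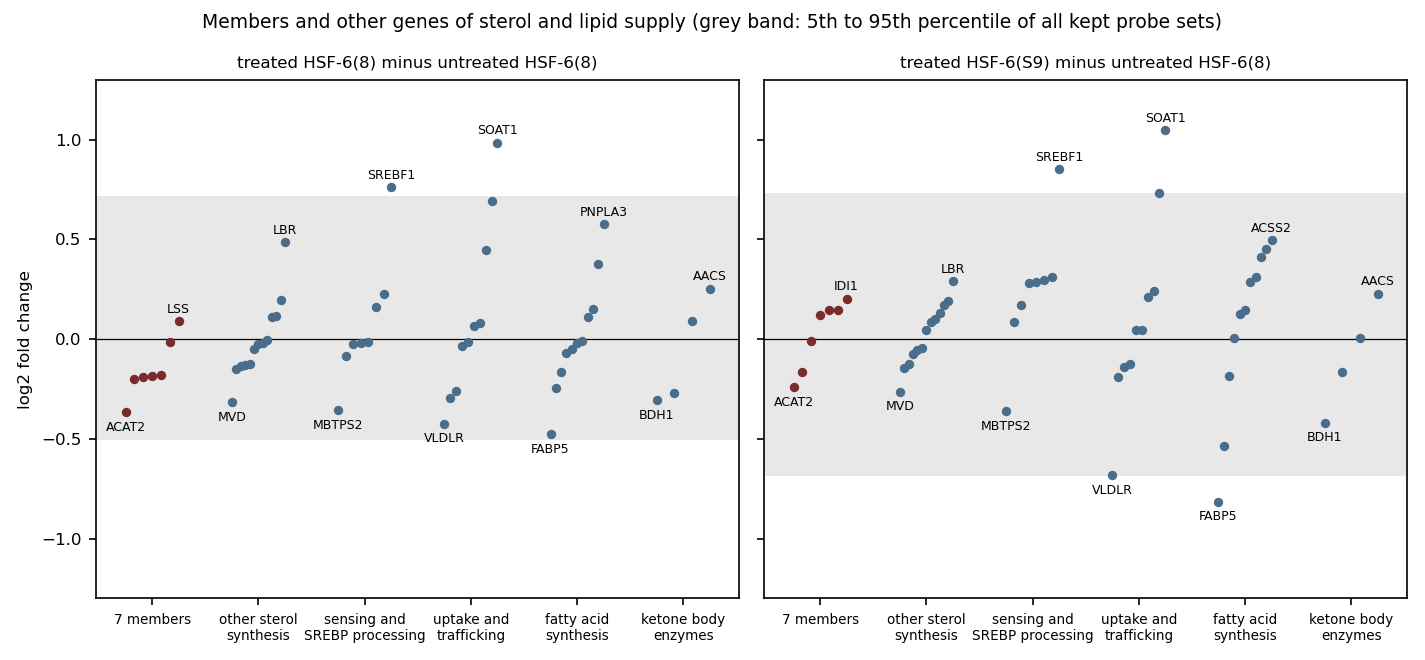
Log2 fold change of the 46 further pathway genes with a kept probe set, by list and comparison, on the log2(signal + 16) scale; each point is 1 gene. List medians run from -0.09 to 0.28, the highest being that of sterol sensing between treated HSF-6(S9) and untreated HSF-6(8); SREBF1 and SOAT1 reach 0.76 and 0.98 within HSF-6(8), and no gene passed the test.

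Markers of pluripotent cells were measured on every array. The summed signal of 10 of 11 listed pluripotency genes was 132900 to 222800 units in treated HSF-6(S9), 140800 to 152900 in treated HSF-6(8) and 147300 to 197300 in untreated HSF-6(8) cells. SOX2 and NANOG, core factors of the pluripotent state, read at least 15790 and 4306 units on all 9 arrays. SOX2 overlapped between all groups. NANOG read 6145, 6503 and 4306 units in treated HSF-6(S9), below the 8647, 9070 and 8598 units of untreated HSF-6(8). In that comparison 17.4% of all kept probe sets did not overlap. The treated HSF-6(8) arrays, at 5605, 4915 and 8911 units of NANOG, overlapped both. The sum of 8 of 10 endoderm markers was 1603 to 2103, 1477 to 8053 and 508.8 to 817.7 units in those groups. The value of 8053 came from the third treated HSF-6(8) array, where the brightest probe sets of IDI1, INSIG1 and SQLE were lowest. Dimmer probe sets of SQLE (213577_at) and IDI1 (233014_at) had their second highest values there, at 1446 and 161 units. The sum of 11 fibroblast and stromal markers was 30590 to 42830, 30690 to 50880 and 23880 to 29640 units. Bright members weighed most in this sum, with VIM alone at 11519 to 20495 units. Its members did not all go the same way. FN1 read 2576 to 3676 units in untreated cells and was higher on every treated array. THY1 read 931 to 1762 units in treated HSF-6(S9), against 1876 to 3884 in untreated cells. Some endoderm and stromal markers read below the array medians (64.8 to 82.9) on some arrays, down to 13.5 units for FOXA2 and 1.29 for LUM. Of the markers tested, 0 passed in any comparison. Their part in the values of the sterol genes was not tested, and in such bulk samples fewer cells of a type and less RNA per cell cannot be told apart.

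For each of the 7 genes the log2 values were standardised over the 9 arrays and averaged, and the other 13512 genes were ranked by Pearson's r with that mean profile. The profile was highest on the third treated HSF-6(S9) array (1.04) and lowest on the third treated HSF-6(8) array (-0.72). Most like it were TMEM169 (r = 0.954), TMEM220 (0.929), HADHB, a thiolase subunit of mitochondrial fatty acid oxidation (0.922), ANKRD50 (0.896) and APBA1 (0.876). Least like it were NARS1, an asparaginyl-tRNA synthetase (-0.920), NMUR2 (-0.910), MAPK13 (-0.906), POPDC3 (-0.904) and UNC5A (-0.899). These are the extremes of many genes over 9 arrays that share labelling and scaling, and they describe the arrays only.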

How the data were processed

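Total RNA of 9 samples was amplified with the MessageAmp Premier kit, per the labels' protocols, and each was measured on 1 array. The deposited intensity values are linear MAS5 signals per probe set, made by the authors with Affymetrix Expression Console, per the submitters' processing notes, with no version stated there. Each array was scaled: after trimming 2% of probe sets at each end, its mean was 500.061 to 500.076. Array medians were 64.8 to 82.9, and precision is limited by having 3 arrays a group. Of 54675 probe sets, 62 controls were left out; of the others 41091 had 1 gene, 1801 several and 11721 none in the platform annotation, with symbols updated by Entrez number.

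Here 16 was added before log2, and limma 3.58.1 in R 4.3.3 (lmFit, eBayes) was fitted to 3 groups on all 9 arrays, with 6 residual and 3.2 prior degrees of freedom. Tests were two-sided, with Benjamini-Hochberg adjustment over 29328 probe sets, and a call needed an adjusted p under 0.05 with no minimum fold. A gene was represented by its probe set with the highest mean. The steps were tested on simulated data with 200 changed probe sets in each of 10 runs for treated against untreated HSF-6(8). In these the intervals covered 94.8% of true values and 5.92% of calls were false. The simulated arrays were independent, so these figures do not cover the shared deviation of arrays of the same number.

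The prime marks of the titles gave the array numbers. Arrays of the same number deviated together from their group means, with r of 0.319, 0.279 and 0.585 between treated and untreated HSF-6(8), 0.272, 0.223 and 0.405 between the treated sublines and 0.124, 0.196 and 0.537 between treated HSF-6(S9) and untreated HSF-6(8), so the numbers were treated as pairs in an alternative fit. Alternatives varied the added constant, the filter, the normalization, the gene summary, the fit and the arrays left out.

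The members and gene lists were chosen with earlier results of these data known. All members are named, and for those analysed the values of the brightest probe set and of some others are given. Of each list, called genes would be named, and otherwise the 2 largest changes are given as values. Likeness took the 5 highest and 5 lowest correlations. Of 60 listed genes 12 were not analysed here for want of an annotated probe set, and 2 did not pass the filter.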

Additional observations from a re-analysis of the deposited data

How the results depend on the processing

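Under 22 alternatives in each comparison, 0 member probe sets were called, as in the reported fit, while the calls over all probe sets ranged from 42 to 219 within HSF-6(8), 0 to 1 between the treated sublines and 36 to 312 between treated HSF-6(S9) and untreated HSF-6(8), against 88, 0 and 114 in the reported fit. With the replicate number as a block, 0 members were called in each comparison, and the calls over all probe sets were 148, 0 and 234. The median log2 fold change of the 7 genes ranged from -0.28 to -0.09 within HSF-6(8) and from 0.04 to 0.24 between the treated sublines. Between treated HSF-6(S9) and untreated HSF-6(8) it was 0.12 and became -0.0446 on the arrays numbered 1 and 2 alone and -0.059 as the mean of a gene's kept probe sets; the cause was not tested. Many alternatives cannot move a fold change by construction (options of the fit, a block in a balanced design, an array of the group not compared). Of the 76, 75 and 75 values of single members that did differ from the reported ones, 5, 9 and 10 had another sign, and the lowest adjusted p was 0.405 (ACAT2 within HSF-6(8), with the third arrays as a block), 0.853 and 0.452. The same alternatives were run for the 20 further genes named, a choice made after seeing the data: none was called, 13, 25 and 4 of the 219, 219 and 220 values that differed had another sign, and the lowest adjusted p was 0.142, 0.853 and 0.0788 (SREBF1 between treated HSF-6(S9) and untreated HSF-6(8), with 1 probe set a gene). With the block the SE was smaller for 15 of 18 member probe sets, but the interval did not narrow for all of these. For LSS probe set 211018_at between the treated sublines it ran from -1.008 to 0.494 with the block, against -1.003 to 0.489 without it.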
